A study of Homo sapiens with 6 samples.

Results

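The 8 genes PAX2, PAX8, WT1, SIX2, EYA1, SALL1, LHX1 and GATA3, regulators that build the kidney in the embryo, were followed in HEK293T cells with and without valproic acid (VPA). They were taken by name from the count files, for the embryonic kidney origin of the line, and make up 8 of 47470 listed genes. Of the 8, 7 were among the 15298 genes with enough counts to be tested, and PAX8 was not. HEK293T is a human line derived from embryonic kidney cells that carries the SV40 large T antigen, and a single transformed line is a limited model of the kidney. Genotype WT is given for both groups. One group of 3 libraries came from untreated cells and the other group of 3 from cells kept in 1 mM VPA for 1 day. VPA is an inhibitor of histone deacetylases and raises histone acetylation. Total RNA was sequenced with a strand-specific mRNA protocol. The sources used here do not say whether the 3 libraries of a group came from separate cultures, so the p-values measure the spread between these libraries, which may be technical.

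The kidney arises from intermediate mesoderm, where a nephric duct sends out the ureteric bud and the surrounding metanephric mesenchyme answers with GDNF, a ligand for the bud's RET receptor. PAX2 and PAX8 are paired-box factors that act together at the start of this lineage, LHX1 is a LIM homeodomain factor of the duct and of the early nephron, and GATA3 is a zinc-finger factor of the duct and later of the collecting system. In the mesenchyme, SIX2 is the homeodomain factor that holds nephron progenitors in self-renewal, EYA1 is a coactivator and phosphatase that works with SIX2 and its relatives, SALL1 is a zinc-finger factor of the same progenitors, and WT1 is a zinc-finger factor of progenitors and of podocytes. EYA1 does not bind DNA by itself, so the name transcription factor covers it as the partner of such factors.

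Sequences around the annotated starts are shown for PAX2, the member with the largest increase, for SIX2, the progenitor factor that was lower, and for WT1, whose start lies beside that of its antisense gene WT1-AS. The RefSeq promoter windows (GRCh38.p14, 250 bases before to 50 after a start) held 5 of the 8 members, PAX2, PAX8, WT1, SIX2 and GATA3. Each is printed 5′ to 3′ on the strand of the gene. Capitals mark GGGCGG, known as the GC box, or the letters of the CCAAT box that give it its name. They also mark TATAAA, the core of a TATA box, and AGATAA, searched here as the GATA motif, all on either strand.
PAX2, start 1, chr10:100735146-100735445 (+): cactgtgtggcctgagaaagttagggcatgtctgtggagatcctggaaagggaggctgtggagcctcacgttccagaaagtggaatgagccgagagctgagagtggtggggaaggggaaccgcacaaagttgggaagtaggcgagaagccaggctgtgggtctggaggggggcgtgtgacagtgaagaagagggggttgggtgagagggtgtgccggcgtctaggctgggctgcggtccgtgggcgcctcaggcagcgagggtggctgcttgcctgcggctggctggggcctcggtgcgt
PAX2, start 2, chr10:100745332-100745631 (+): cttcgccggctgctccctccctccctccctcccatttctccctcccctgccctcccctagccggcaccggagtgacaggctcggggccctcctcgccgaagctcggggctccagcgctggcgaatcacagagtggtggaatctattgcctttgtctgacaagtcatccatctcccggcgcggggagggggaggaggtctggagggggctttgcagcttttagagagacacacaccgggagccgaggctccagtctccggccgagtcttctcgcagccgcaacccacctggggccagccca
SIX2, chr2:45009403-45009702 (-): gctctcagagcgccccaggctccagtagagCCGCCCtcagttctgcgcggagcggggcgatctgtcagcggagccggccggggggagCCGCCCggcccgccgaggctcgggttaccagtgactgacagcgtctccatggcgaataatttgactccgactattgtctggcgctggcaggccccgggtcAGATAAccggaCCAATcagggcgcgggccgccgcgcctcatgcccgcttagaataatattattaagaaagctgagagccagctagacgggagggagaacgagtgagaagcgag
WT1, start 1, chr11:32435490-32435789 (-): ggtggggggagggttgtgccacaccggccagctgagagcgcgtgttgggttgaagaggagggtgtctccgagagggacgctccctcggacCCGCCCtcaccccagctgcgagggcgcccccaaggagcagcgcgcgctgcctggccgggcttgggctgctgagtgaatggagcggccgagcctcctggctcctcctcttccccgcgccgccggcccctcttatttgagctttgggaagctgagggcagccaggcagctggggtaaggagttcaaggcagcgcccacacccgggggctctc

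Neither PAX2 window held any of these letters, and they had GC contents of 63.7% and 66.7% with 14 and 19 CpG dinucleotides. The SIX2 window held 2 GC boxes, 1 CCAAT box and 1 GATA motif, with 29 CpG dinucleotides. The WT1 window held 1 GC box and 21 CpG dinucleotides. Among 35116 windows of the same length a GC box was found in 45%, a CCAAT box in 34.6%, a TATA box in 11.5% and a GATA motif in 10.3%, and the median window had a GC content of 58.7% and 14 CpG dinucleotides. A match of letters is a description of the window and not a bound site.

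Counts on genes were between 18622267 and 18828495 per library, so depth was close to equal in the 6 libraries. Between 6.802% and 7.689% of the reads listed per library fell on no gene and 1.973% to 2.103% were ambiguous between genes. The biological coefficient of variation between libraries of a group was 3.83%. Every one of the 1437 listed genes of chromosome X was at 0 in all libraries, and a 0 for such a gene is not read as a measurement. Counts were normalized with TMM and scaled to the mean library, and each value below is such a normalized count unless it is given as a level per length.

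In untreated cells the members had very different levels. Expressed per kilobase of the GENCODE 44 canonical transcript and per 1000000 normalized counts, SIX2 was at 13.9 ± 1.55 (SD, n = 3) and SALL1 at 13.1 ± 0.230, and the ranges of these 2 genes overlapped. GATA3 at 6.29 ± 0.334, EYA1 at 4.37 ± 0.257, WT1 at 3.79 ± 0.108, LHX1 at 1.15 ± 0.0535 and PAX2 at 0.377 ± 0.00498 followed, each in a range that did not overlap that of the next gene. PAX8 was at 0. SIX2 and SALL1 stood at the top of the order and the paired-box factors PAX2 and PAX8 at its foot.

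In VPA-treated cells on the same scale SALL1 was at 11.8 ± 0.382, SIX2 at 10.6 ± 0.317, GATA3 at 6.23 ± 0.216, WT1 at 3.86 ± 0.0168, EYA1 at 2.73 ± 0.181, LHX1 at 1.99 ± 0.180 and PAX2 at 1.81 ± 0.0137 (SD, n = 3 each). No range overlapped that of the next gene. SIX2 had moved below SALL1 and EYA1 below WT1, while PAX2 had come close to LHX1. In these bulk libraries, fewer cells that express a gene and less RNA per cell cannot be told apart.

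PAX2 (chr10:100735396-100829944, plus strand, 10 exons in its canonical transcript) was the one member up-regulated at the thresholds of the study (adjusted p below 0.05, log2 fold change 1 or more). It had 30.0, 29.3 and 29.4 normalized counts untreated and 143, 141 and 142 after VPA. All 3 VPA-treated libraries were far above all untreated ones, and the libraries within each group were nearly equal.

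The mean of PAX2 rose from 29.5 ± 0.390 to 142 ± 1.07 (SD, n = 3 each), 4.775-fold. The log2 fold change was 2.26 (SE 0.14, 95% interval 1.97 to 2.54, adjusted p 6.8e-12 by the quasi-likelihood test of edgeR). The raw counts of the 3 libraries differed by less than counting alone would give, with an SD of 0.577 against a counting SD of 5.32 in untreated cells and of 1.53 against 12.2 in VPA-treated cells. The summed counts were 85 untreated (exact Poisson 95% interval 67.9 to 105) and 443 VPA-treated (403 to 486), so the groups were apart by the counting error as well. These intervals cover counting error only.

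Among all tested genes 12.0% were up-regulated, and the share was 25.8% among the 2361 tested genes with a mean within a factor of 2 of that of PAX2. Of all tested genes, 476 had a larger log2 fold change than PAX2. An increase of a gene at this level was therefore frequent in these cells, and that of PAX2 was in the upper part of the range.

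PAX8 (chr2:113215997-113278921, minus strand), the close relative of PAX2, had 0 counts in each of the 3 untreated libraries and 1, 1 and 0 counts in the VPA-treated ones. A count of 0 allows up to 3 counts in a library, so PAX8 was not detectable at this depth in untreated cells, and no fold is given. Without the filter on low counts edgeR gave an adjusted p of 0.327, and DESeq2 gave none. The antisense gene PAX8-AS1 lies wholly within the span of PAX8 on the plus strand and had 1, 2 and 1 counts untreated and 4, 3 and 2 VPA-treated, too few for a test. The strand setting of the counting is not given in the sources used here, so the reads of such an overlapping pair are uncertain. PSD4, which encodes an exchange factor for ARF6 and ends 6605 bases from PAX8, rose from 54.2 ± 6.37 to 95.2 ± 4.25 normalized counts (log2 fold change 0.81, SE 0.14, edgeR adjusted p 2.73e-05).

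**Figure D1:**
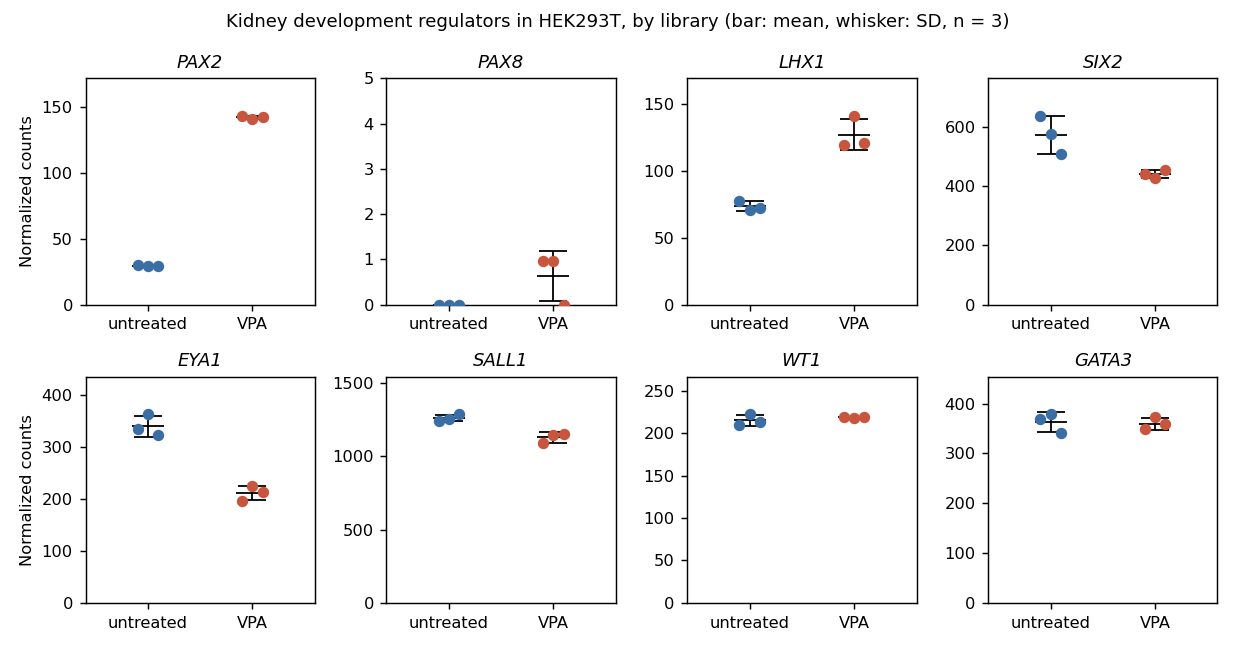
Normalized counts (y axis, from 0, a separate scale for each gene) of the 8 genes in the 3 untreated and 3 VPA-treated libraries (points), with the mean (bar) and SD (whisker). PAX2 and LHX1 have every VPA-treated point above the untreated ones, SIX2, EYA1 and SALL1 have every VPA-treated point below, WT1 and GATA3 overlap, and PAX8 is at or near 0.

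LHX1 (chr17:36936785-36944612, plus strand, 5 exons) rose in VPA-treated cells but by less than the fold threshold. Its normalized counts were 77.6, 71.1 and 72.4 untreated and 119.7, 141 and 121 VPA-treated. The groups did not overlap, and the second VPA-treated library was above the other two. The mean went from 73.7 ± 3.43 to 127 ± 11.5 (SD, n = 3 each), 1.725-fold (log2 fold change 0.79, SE 0.12, 95% interval 0.53 to 1.04, edgeR adjusted p 8.88e-06).

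LHX1-DT, a long non-coding RNA gene that is read away from LHX1 on the opposite strand and begins 123 bases from it (chr17:36861674-36936661), was up-regulated. It had 48.6, 40.8 and 43.0 normalized counts untreated and 147, 144 and 107 VPA-treated. The third VPA-treated library was the lowest of its group and still above every untreated one. LHX1-DT rose 3.006-fold, from 44.1 ± 4.04 to 133 ± 22.4 (log2 fold change 1.59, SE 0.15, edgeR adjusted p 1.07e-08). Whether the log2 fold changes of LHX1 and LHX1-DT differ was not tested, and their 95% intervals, the latter from 1.27 to 1.91, did not overlap. AATF, a ribosome biogenesis gene 4341 bases from LHX1, was lower in VPA-treated cells (3119.6 ± 167 to 2573 ± 80.2, log2 fold change -0.28, edgeR adjusted p 1.46e-05), so the neighbours of LHX1 moved in different directions.

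EYA1 (chr8:71197433-71548094, minus strand, 18 exons) showed the largest decrease of the 7 tested members. It had 335, 363 and 324 normalized counts in untreated cells and 197, 225 and 214 in VPA-treated cells. Every VPA-treated library was below every untreated one. The mean fell from 341 ± 20.0 to 212 ± 14.1 (SD, n = 3 each), 62.3% of the untreated level (log2 fold change -0.68, SE 0.081, 95% interval -0.85 to -0.51, edgeR adjusted p 2.52e-07). The decrease stayed above a log2 fold change of -1 and EYA1 was not called down-regulated at the thresholds of the study. Of the genes that overlap EYA1 or lie within 10000 bases of it, 4 non-coding ones had 2 counts each over all libraries.

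SIX2 (chr2:45005182-45009452, minus strand, 2 exons), whose product EYA1 partners, was lower as well. Its normalized counts were 635, 574 and 508 untreated and 439, 425 and 452 VPA-treated. The untreated libraries were spread more widely than the VPA-treated ones, and the groups did not overlap. SIX2 fell from 572 ± 63.8 to 439 ± 13.1 (SD, n = 3 each), 76.66% of the untreated level (log2 fold change -0.38, SE 0.073, 95% interval -0.53 to -0.23, edgeR adjusted p 9.74e-05). Scaled by library totals alone the log2 fold change was -0.25 (adjusted p 0.00752).

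SALL1 (chr16:51135982-51152334, minus strand, 3 exons), the member with the most counts, had 1242, 1249.8 and 1284 normalized counts untreated and 1087, 1146 and 1154 VPA-treated. The VPA-treated libraries were all below the untreated ones, by little. The means were 1259 ± 22.1 and 1129 ± 36.7 (SD, n = 3 each), 89.69% of the untreated level, and the log2 fold change was -0.16 (SE 0.048, 95% interval -0.26 to -0.058, edgeR adjusted p 0.00672). This call depended on the scaling of the libraries, at -0.092 (adjusted p 0.107) after upper-quartile scaling and -0.025 (adjusted p 0.662) with library totals.

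WT1 (chr11:32387775-32435539, minus strand, 10 exons) did not pass the test. It had 210.0, 222 and 213 normalized counts untreated and 219, 218 and 219 VPA-treated, and the groups overlapped. The means were 215 ± 6.11 and 219 ± 0.954 (SD, n = 3 each, log2 fold change 0.025, SE 0.082, edgeR adjusted p 0.808). The 95% interval from -0.15 to 0.20 includes a small change in either direction.

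WT1-AS (chr11:32435518-32458769, plus strand), the antisense RNA gene that starts across the start of WT1 and shares 22 bases with it, had 23.8, 13.6 and 11.5 normalized counts untreated and 30.6, 28.9 and 34.4 VPA-treated. All VPA-treated libraries were above the untreated ones, of which the first was the highest. WT1-AS rose from 16.3 ± 6.56 to 31.3 ± 2.84 (SD, n = 3 each, log2 fold change 0.93, SE 0.26, edgeR adjusted p 0.00328). The WT1 window printed above holds both starts.

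GATA3 (chr10:8045333-8075198, plus strand, 6 exons) did not pass the test either, with 369, 378 and 341 normalized counts untreated and 348, 372 and 359 VPA-treated. The VPA-treated values lay within the range of the untreated ones. The means were 363 ± 19.2 and 359.6 ± 12.5 (SD, n = 3 each, log2 fold change -0.012, SE 0.071, 95% interval -0.16 to 0.13, edgeR adjusted p 0.893). The sign turned with the scaling, to 0.053 after upper-quartile scaling and 0.12 with library totals. GATA3-AS1, inside the span of GATA3 on the other strand, had at most 4 counts in a library and was not tested.

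**Figure D2:**
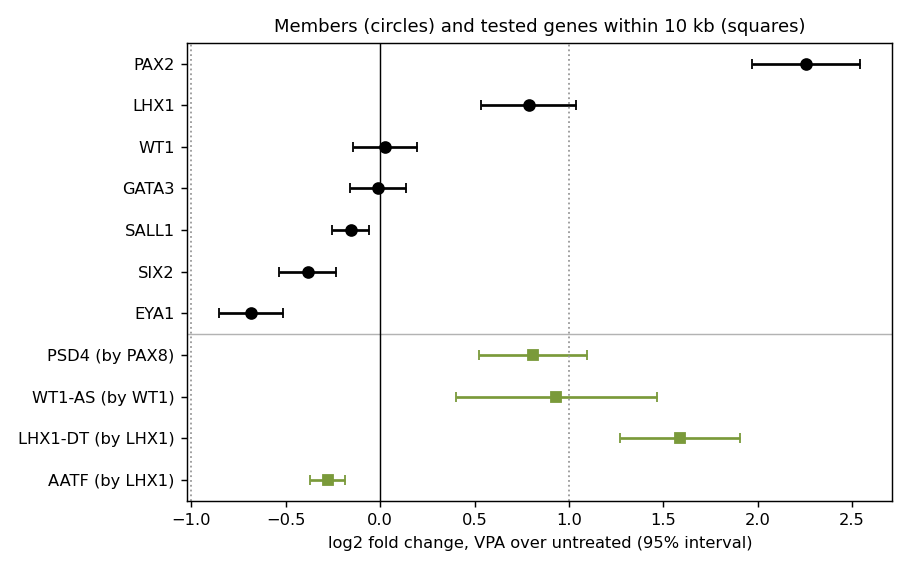
Log2 fold change of VPA-treated over untreated cells (x axis) with its 95% interval for the 7 tested members (circles) and the 4 tested genes within 10000 bases of a member (squares). Dotted lines mark log2 fold changes of -1 and 1. PAX2 at 2.26 and LHX1-DT at 1.59 have their whole interval past 1, and no interval reaches -1.

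Of the 7 tested members, 1 was up-regulated at the thresholds of the study, against 12.0% of all tested genes. The number down-regulated was 0 in edgeR, at an unadjusted p under 0.05 with the same fold threshold and in DESeq2, against 0.503% of all tested genes. At the adjusted p alone 2 were higher, PAX2 and LHX1, and 3 were lower, EYA1, SIX2 and SALL1, against 32.9% and 30.0% of all tested genes. With library totals the members gave 2 higher and 2 lower, and all tested genes 6713 higher and 2372 lower in place of 5037 and 4591. The VPA-treated libraries were all above the untreated ones for 2 members and all below for 3, against 34.8% and 31.0% of all tested genes. These shares are near the background, and the median log2 fold change of -0.012 is close to the 0.006 over all tested genes.

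**Figure D3:**
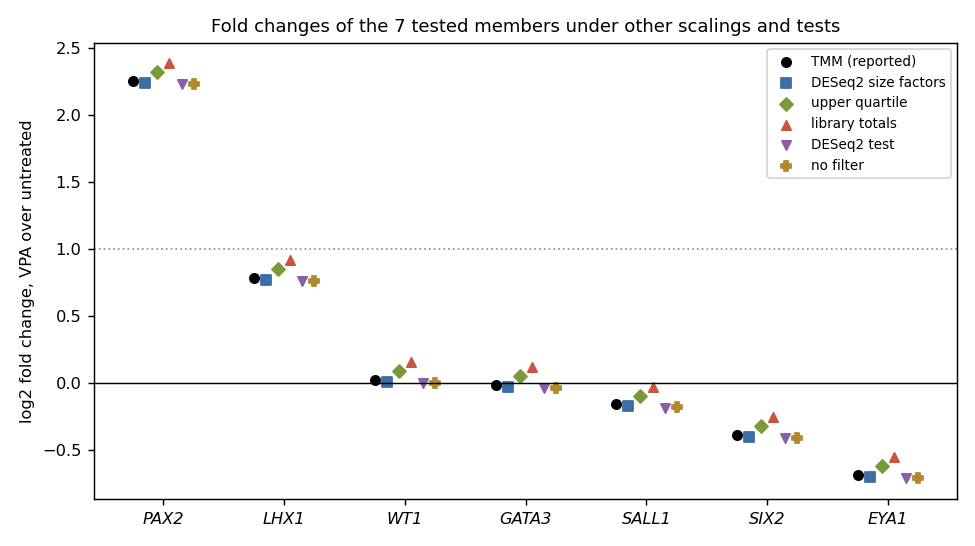
Log2 fold change of VPA-treated over untreated cells (y axis) of the 7 tested members under TMM, 3 other scalings, DESeq2's own test and no filter on low counts (symbols). PAX2 stays above 2 and EYA1, SIX2 and LHX1 keep their side of 0 in every symbol shown, while SALL1 comes near 0 with library totals and GATA3 lies on both sides of 0.

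The relatives of the members were taken as a list of 33 paralogs, some of which are themselves kidney genes. Of the 28 tested, 6 were up-regulated, and 15 were higher and 7 lower at the adjusted p alone, or 18 and 5 with library totals. Over all tested genes 12.0% were up-regulated, 32.9% higher and 30.0% lower. The median log2 fold change of the paralogs was 0.39. Including the members, 7 of the 8 PAX genes listed were tested, of which 5 were higher, 4 of them up-regulated, and 1 lower. PAX1, a factor of the sclerotome, rose from 3.13 ± 1.06 to 14.7 ± 3.41 normalized counts, PAX5, a B-cell factor, from 4.87 ± 2.19 to 20.4 ± 6.75, and PAX7, a factor of muscle stem cells, from 16.4 ± 5.80 to 53.7 ± 11.0 (SD, n = 3 each). PAX1 and PAX5 had at most 4 and 7 raw counts in an untreated library and entered the test through their VPA-treated libraries. The up-regulated PAX genes thus included ones known from tissues other than the kidney.

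Among the relatives of SIX2, SIX3 and SIX4 did not pass the test (log2 fold changes -0.32 and -0.024, edgeR adjusted p 0.438 and 0.713). SIX5, named after its values were seen, fell from 395 ± 52.0 to 273 ± 27.1 (log2 fold change -0.54, SE 0.092, edgeR adjusted p 4e-05). DACH1, a cofactor that joins EYA proteins and their homeodomain partners, also named after its values were seen, fell from 1389 ± 22.6 to 769 ± 4.85 (log2 fold change -0.85, SE 0.048, edgeR adjusted p 1.51e-12).

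Most of the remaining families were split in direction, apart from the LHX and EGR genes. Over all tested genes 12.0% were up-regulated, 32.9% higher and 30.0% lower. With library totals 6713 of 15298 were higher and 2372 lower. All 6 tested LHX genes were higher, 1 of them, LHX9, up-regulated from 37.5 ± 3.33 to 89.2 ± 4.85, while DESeq2 called 5 higher. LHX3 and LHX5, with 8 and 0 counts over all libraries, were not tested. Of 4 EYA genes 1 was higher and 2 lower, a balance that turned to 2 and 1 with library totals. Of 4 SALL genes 1 was higher and 2 lower, which became 2 and 0 with library totals, and SALL2 did not pass the test (log2 fold change 0.077, edgeR adjusted p 0.108). Of 5 tested GATA genes 1 was higher and 2 lower, with GATA6 and GATA4, endoderm and heart factors named after their values were seen, at log2 fold changes of -0.71 and -0.45. The EGR genes, zinc-finger relatives of WT1 induced by growth signals, had 3 of 3 tested higher, with EGR2 and EGR3 up-regulated from 3.48 ± 2.63 and 4.19 ± 2.78 to 22.7 ± 4.31 and 22.7 ± 2.07, and 2 higher in DESeq2. EGR2 and EGR3 had at most 6 raw counts in an untreated library and entered the test through their VPA-treated libraries. EGR4, with 2 counts over all libraries, was not tested.

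Beyond these families, 50 other transcription factors of kidney development were listed, of which 39 were tested. At the adjusted p alone 10 were higher and 21 lower, 53.8% of those tested against 30.0% of all tested genes, and the median log2 fold change was -0.27. Those up-regulated were 4, 10.3% against 12.0% of all tested genes. None was down-regulated in edgeR, also at an unadjusted p under 0.05, and 2 were in DESeq2. Among the 4, TFCP2L1, a factor of the distal nephron and collecting duct, rose from 193 ± 10.8 to 462 ± 13.9 (log2 fold change 1.26, SE 0.075), and FOXC2, a factor of podocytes, from 13.5 ± 7.76 to 51.8 ± 11.5. MEOX1 rose from 15.0 ± 1.64 to 35.5 ± 5.45, and ETV4, a target of RET signalling in the ureteric bud, from 4.85 ± 4.17 to 13.4 ± 1.88. FOXC2 and ETV4 entered the test through their VPA-treated libraries, with 21, 12 and 6 and with 9, 4 and 1 raw counts untreated. With at least 10 counts required in every library, 2 rather than 4 of the listed factors were up-regulated.

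The HOX genes of the list, which pattern the mesenchyme, were HOXA10, HOXC10, HOXD10, HOXA11, HOXC11 and HOXD11. Each of them was lower at the adjusted p, as were 30.0% of all tested genes. HOXD11, whose group is known to act with EYA1 and PAX2 at the SIX2 and GDNF genes, fell from 3449 ± 159.9 to 1739 ± 26.6 normalized counts. Its log2 fold change of -0.99 (SE 0.044, edgeR adjusted p 3.27e-14) did not quite reach the fold threshold of -1. The other HOX genes were named after their values were seen, and HOXD10, HOXA10 and HOXA11 had log2 fold changes of -0.99, -0.88 and -0.27. FOXC1 fell from 3978 ± 384 to 2524 ± 216.

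Signalling genes of kidney development were read as a list of their own. Of 51 listed, 43 were tested, and 16 were up-regulated, 37.2% against 12.0% of all tested genes, and 1 was down-regulated. Their median log2 fold change was 0.55. At the adjusted p alone 26 were higher, 60.5% of those tested against 32.9% of all tested genes, and 9 were lower. Some of the 16 had few untreated counts and entered the test through their VPA-treated libraries. With at least 10 counts required in every library, 8 of 35 tested were up-regulated, against 1179 of 13882 over all genes. The median log2 fold change of those 35 was 0.21. The list was chosen with earlier results of these data known. The branch of GDNF, which EYA1 and PAX2 are known to act on, was followed by name after its values were seen. GDNF itself, the ligand, rose from 18.4 ± 3.11 to 51.1 ± 5.43 normalized counts (log2 fold change 1.47, SE 0.21, edgeR adjusted p 2.38e-06).

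RET, the receptor of the ureteric bud and a gene that PAX2, PAX8 and GATA3 are known to act on, rose from 59.1 ± 9.82 to 262 ± 11.5 (log2 fold change 2.15, SE 0.12, edgeR adjusted p 6.97e-13). GFRA1, the co-receptor, rose from 101 ± 12.8 to 257 ± 17.8 (log2 fold change 1.36, SE 0.11, edgeR adjusted p 3.25e-10). The ligand, receptor and co-receptor were thus all higher. Of the members named as acting on them, PAX2 was up-regulated, EYA1 was lower, GATA3 did not pass the test and PAX8 was not detectable in untreated cells. Whether these members act on GDNF or RET in these cells was not tested. WNT11, a tip gene downstream of RET, rose from 91.8 ± 5.90 to 209 ± 12.0, and NPNT, which encodes nephronectin, a matrix ligand of the bud, rose from 118 ± 10.9 to 422 ± 38.3. SPRY1, an inhibitor of RET signalling, did not pass the test (300.0 ± 17.5 and 272 ± 10.6, edgeR adjusted p 0.114).

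The largest fold changes of the signalling list were mostly in genes near the detection limit. RSPO1, RSPO3, GFRA2, HGF and WNT9B had between 1.04 and 2.79 mean normalized counts untreated and between 15.7 and 24.0 VPA-treated. SLIT2, the guidance ligand that restricts the site of the bud, was the down-regulated gene. It fell from 8983 ± 61.8 to 4309.7 ± 27.4 (log2 fold change -1.06, SE 0.038, edgeR adjusted p 1.34e-15). This was close to the fold threshold of -1 that the call needs, and SLIT2 was not called down-regulated with upper-quartile or library-total scaling or with glmTreat. NOTCH2, the receptor for proximal nephron fate, fell from 8084 ± 106 to 6670.5 ± 70.9.

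**Figure D4:**
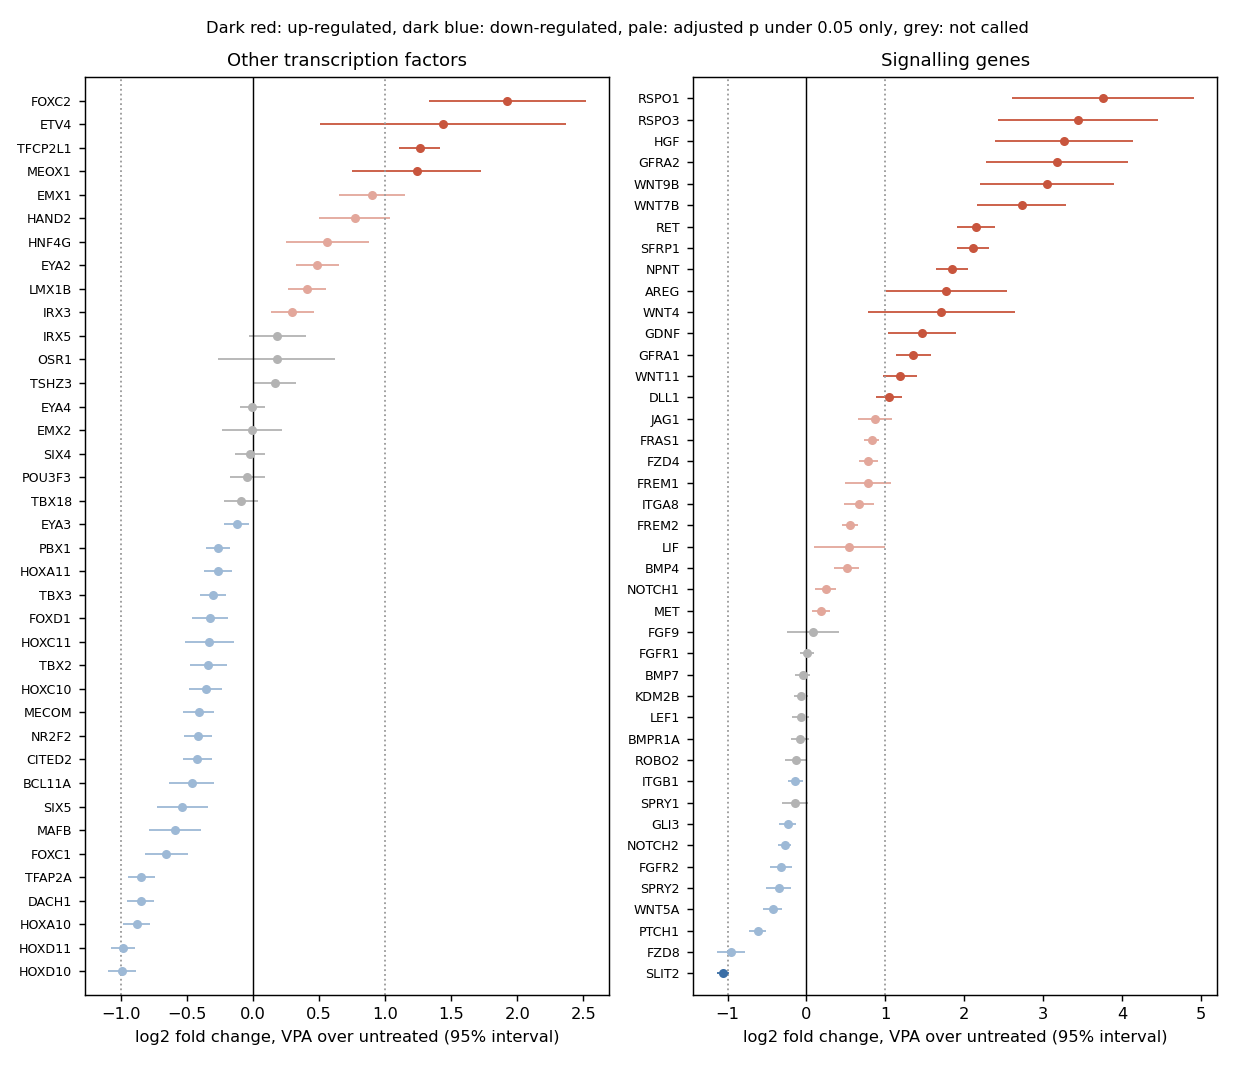
Log2 fold change of VPA-treated over untreated cells (x axis) with its 95% interval for tested transcription factors (left) and signalling genes (right) of kidney development. Dark red marks up-regulated and dark blue down-regulated genes, pale colours an adjusted p under 0.05 alone and grey no call. Transcription factors lean below 0, with 21 lower against 10 higher over the whole list, and signalling genes lean to the other side, with 26 higher against 9 lower.

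Markers of the mature kidney and of other cell types were read beside the members, as lists of summed normalized counts. Genes that define mature nephron cells were read first. Since they mark mature cells, they cannot test the embryonic kidney origin of the line. The proximal tubule transporters SLC22A6 and SLC22A8, the loop of Henle marker UMOD with KNG1, and the duct markers KRT7, KRT19, UPK3A and CDH16 were at 0 in every library. Counts of markers called are to be read against the 12.0% of all tested genes that were up-regulated, and the 25.8% of those at a level near that of PAX2. Of 10 podocyte markers 6 were tested, 4 up-regulated and 1 lower, and the list summed to 1389 to 1537 counts untreated and 2546 to 2649.6 VPA-treated. PODXL, a gene that WT1 is known to activate in podocytes, rose from 1144 ± 63.5 to 1961 ± 47.0 and SYNPO from 24.4 ± 7.08 to 237 ± 9.39, while WT1 itself did not pass the test. Whether WT1 acts on PODXL in these cells was not tested.

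Of 12 proximal tubule markers 5 were tested and 2 up-regulated, with LRP2, the endocytic receptor megalin, rising from 900.4 ± 73.1 to 1469 ± 13.5 and GGT1 up-regulated from 80.3 ± 4.17 to 173 ± 10.2. The sums were 967 to 1109.6 untreated and 1707 to 1727 VPA-treated. Of 10 loop and distal tubule markers 3 were tested and 2 up-regulated, with PVALB rising from 6.26 ± 1.07 to 24.9 ± 6.78 and with sums of 155 to 169.6 and 243 to 259.9. Of 18 collecting duct and ureteric bud markers 6 were tested and 4 up-regulated, with sums of 1515 to 1658 and 2681 to 2815. The water channel AQP4 rose from 8.35 ± 2.13 to 81.8 ± 5.77, UPK1B from 36.2 ± 3.11 to 215 ± 6.80, and KRT8 from 388 ± 51.3 to 1003 ± 63.3. The summed counts of each of these nephron lists were therefore higher in VPA-treated cells, with the markers named above still at 0. The sums were largely made up of PODXL, of LRP2, of TRPM6, and of KRT8 with KRT18. Most tubule and duct markers were not tested, and 2 tested proximal tubule markers and 1 tested duct marker did not pass. PVALB, AQP4, NTNG1 and SLC5A12, all up-regulated, entered the test through their VPA-treated libraries. They had at most 7, 10, 9 and 10 raw counts in an untreated library. ATP6V0D2, a duct marker named after its values were seen, was not tested and had every VPA-treated library below every untreated one.

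Lists for tissues outside the kidney epithelium moved too. Of 16 neuronal and neural crest markers 9 were tested and 6 up-regulated, with sums of 6484 to 6854 untreated and 12142 to 12994 VPA-treated, led in level by NEFM and NEFL, and SOX10 was at 0. Of 10 fibroblast and smooth muscle markers 9 were tested and 7 up-regulated, with sums of 661 to 714 and 2269 to 2436, led by COL1A1, which rose from 432 ± 27.9 to 1287 ± 85.0. Of 12 endothelial and blood markers 4 were tested, 2 up-regulated and 1 down-regulated, CD68, with sums of 63.1 to 80.5 and 202 to 220.0. Of 12 adrenal cortex markers 3 were tested and 1, NR5A1, was up-regulated, with CYP11B1, CYP21A2, HSD3B2 and MC2R at 0. The adrenal sums of 3967 to 4112 untreated and 3383 to 3575 VPA-treated were largely made up of SCARB1 and FDX1. SCARB1 went from 3406 ± 72.2 to 2871 ± 112, and FDX1 did not pass the test. Of the up-regulated genes in these lists, NEFH, DES, DCN, VWF and NR5A1 entered the test through their VPA-treated libraries. They had at most 11, 9, 3, 3 and 4 raw counts in an untreated library. The part of these changes in the results for the 8 members was not tested.

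The genes most like PAX2 over the 6 libraries, by Pearson's r of log2 normalized counts among the 2360 tested genes of similar level, were LUM (r = 0.99996), PPP2R2C (r = 0.99980) and S1PR5 (r = 0.99973). LUM, which encodes the matrix protein lumican, rose from 25.4 ± 0.419 to 243 ± 3.27. An r above 0.9 was reached by 1001 of the candidates, since any gene that rises in all VPA-treated libraries shares the contrast. Those most like SALL1 were CCDC43 (r = 0.99809), COA7 (r = 0.99718) and EIF3J (r = 0.99712) among 4855 candidates, of which 857 were above 0.9. These values describe 6 libraries in 2 groups and say nothing beyond that.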

How the data were processed

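RNA-seq of 3 untreated and 3 VPA-treated HEK293T libraries was used. The authors trimmed with SOAPnuke, mapped to hg38 with STAR and ran htseq-count, and they deposited its raw counts without normalization. The submitters' processing notes name STAR 2.7.10b, HTSeq 2.0.1 and DESeq2. The annotation and strand setting of the counting are not given in the sources used here. Reads that matched several places or genes were set aside, so genes with close copies are undercounted. The 5 htseq-count summary lines were kept out of library sizes and tests, and those with reads were up to 7.689% (no gene), 2.103% (ambiguous) and 2.919% (not unique) of the reads listed.

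The test was that of edgeR 4.0.16 (R 4.3.3, TMM, filterByExpr with a minimum of 10, robust quasi-likelihood fit on condition, prior count 0.125), adjusted with the Benjamini-Hochberg method over all 15298 genes tested. "Up-regulated" and "down-regulated" mean adjusted p below 0.05 with a log2 fold change of 1 or more in that direction, and "higher" and "lower" the adjusted p alone. Total counts on genes were 18622267 to 18828495 per library. Replicates differed beyond sampling noise (chi-square per gene 1.699 to 5.299) and each was counted once. On simulated counts with 200 changed genes, edgeR recovered 200 with 1 false call over 15055 genes and DESeq2 1.42.0 recovered 200 with 0 over 15298. The changed genes were well counted ones given a large fold change of fixed size, so small changes and low counts were not covered.

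Coordinates are those of RefSeq (GRCh38.p14), with 42911 symbols matched and 4559 unmatched, and transcript lengths and exons those of GENCODE 44. Named were the 8 members, genes within 10000 bases of them, and, in each list, up to 6 called genes of largest fold change and 2 of highest level, markers at 0, and the genes most like PAX2 and SALL1. Others are marked as named after their values were seen. The members and lists were chosen with earlier results of these data known. The alternatives were DESeq2, 3 other scalings, no filter or a minimum of 10 counts in every library, a prior count of 2, glmTreat, a replicate block and the omission of each library in turn.

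Same-numbered libraries deviated together (r = 0.4, 0.142 and 0.325 over 11064 tested genes whose mean was 100 normalized counts or more, and 0.116, 0.0157 and 0.0649 over all tested genes). From the better counted genes the numbers were taken as pairs, but only in the replicate block, an alternative. The p-values, SEs and intervals reported above come from the fit without pairs. With the block 5357 of all tested genes were higher and 5100 lower, against 5037 and 4591 without it. The labels do not say what a number marks.

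Some genes of the lists are counted in the totals but are not reported here by name and are not drawn.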

Additional observations from a re-analysis of the deposited data

How the results depend on the processing

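PAX2 was up-regulated under each of the 15 alternatives, with log2 fold changes from 2.19 to 2.39. LHX1, EYA1 and SIX2 kept direction and call under 14, with ranges of 0.71 to 0.92, -0.73 to -0.55 and -0.47 to -0.25, and were not called by glmTreat, which tests against the fold threshold itself. SALL1 was not called under upper-quartile scaling, library totals or glmTreat, and ranged from -0.17 to -0.13 with 1 library left out (adjusted p 0.00534 to 0.0338 in edgeR). GATA3, which passed no test, turned positive with upper-quartile scaling (0.053), library totals (0.12) and a minimum of 10 counts in every library (0.010), and ranged from -0.061 to 0.011 with 1 library left out. The replicate block left 1 member up-regulated, 0 down-regulated, 2 higher and 3 lower, as without it, and changed no call of a member.

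Of the other kidney transcription factors, 2 rather than 4 were up-regulated with 10 counts in every library and with glmTreat, and 2 rather than 0 were down-regulated with DESeq2, DESeq2 size factors and no filter, with 0 to 2 when 1 library was left out. With 10 counts in every library, 8 rather than 16 signalling genes and 2 rather than 6 paralogs were up-regulated, since fewer genes were tested. The 1 down-regulated signalling gene became 0 with upper-quartile scaling, library totals and glmTreat, and 1 to 2 with 1 library left out. Over all tested genes, 1833 up-regulated became 1179 with 10 counts in every library and 1149 with glmTreat, and 77 down-regulated became 38 with library totals, 162 with no filter, 43 with 10 counts in every library and 8 with glmTreat. The median log2 fold change of all genes moved from 0.006 to 0.071 with upper-quartile scaling and to 0.137 with library totals, which gave 6713 higher and 2372 lower genes in place of 5037 and 4591. Except where a sentence names it, the cause of a change was not tested. Depth limits PAX8 and the antisense genes, which had at most 4 counts in a library in PAX8-AS1 and GATA3-AS1.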

Other observations

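The values of a few genes counted above in the signalling list are given here, chosen after their values were seen. Each of them was higher in VPA-treated cells, while 9 genes of that list were lower at the adjusted p alone. AREG, the growth factor amphiregulin, which WT1 is known to activate, had 4.87 ± 2.20 normalized counts untreated and 16.9 ± 1.51 VPA-treated (SD, n = 3 each, log2 fold change 1.77, SE 0.37, edgeR adjusted p 0.000278). WT1 was at 215 ± 6.11 and 219 ± 0.954, and whether it acts on AREG in these cells was not tested. AREG and WNT4 had at most 7 and 5 raw counts in an untreated library and entered the test through their VPA-treated libraries. WNT4, the signal that turns the mesenchyme into epithelium and that acts in the same progenitors as WT1 and SIX2, had 3.83 ± 1.61 and 12.8 ± 4.71 (log2 fold change 1.71, SE 0.45, edgeR adjusted p 0.00231). ITGA8, the mesenchymal receptor for nephronectin, had 189.6 ± 22.7 and 301 ± 22.4, and its change passed the test without reaching the fold threshold (log2 fold change 0.67, SE 0.093, edgeR adjusted p 2.3e-06). DLL1 and JAG1, Notch ligands of the early nephron, had log2 fold changes of 1.05 (SE 0.079) and 0.87 (SE 0.10).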
